A study of Arabidopsis thaliana with 9 samples.

Results

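Flooding with physical flow was compared directly with submergence in still water, to find which transcripts of *Arabidopsis thaliana* shoots differed between these treatments. The comparison used the 3 flooding samples and the 3 submergence samples among the 9 samples of the series, and all genes with a mean of at least 0.5 FPKM (fragments per kilobase of transcript, scaled to the total of mapped fragments) over these 6 samples. This left 18865 of the 32833 genes in the deposited table. All plants were of the accession Columbia-0 and 4 weeks old, and each sample pooled the shoots of 10 plants. Submergence meant 30 min in a plastic container of still water. Flooding meant 30 min in a water channel with a flow of 8 L/s, where metal anchors held the plants. Both were at a depth of 10 cm. The paper names no anchors for the submerged plants. Flow thus differed together with the vessel and perhaps the anchors, and their parts in a difference cannot be told apart. The 3 control samples, kept out of water, were left out of the test on these 6 samples. Their values are set beside the others, and they add to the estimate of the spread where a fit of all 9 samples is named. The deposited column names number both stresses without naming them. Which number is which treatment was read from the headings of a supplementary plot of the study, so every direction given here rests on that reading.

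Moving water adds a mechanical load to a plant that is already under water. Touch, bending and wounding open calcium channels within seconds, and calmodulin-like proteins (CMLs) bind the calcium that enters. NADPH oxidases of the RBOH family then release reactive oxygen outside the cell. Within minutes, genes of ethylene response factors (ERFs), WRKY factors and the jasmonate pathway are transcribed, many of which are also induced by fragments of fungal or plant cell walls. Jasmonate acts by removing the JAZ repressors from MYC2, and salicylic acid is made through ICS1 under the control of CBP60G and SARD1. Submergence itself lowers the oxygen supply, and group VII ERFs, which are stable only at low oxygen, switch on fermentation genes.

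The 6 samples were similar in the sum of FPKM, which lay between 752248.71 and 767033.65. Flooding replicate 3 stood apart, with the lowest sample weight in limma (0.327, against 0.512 to 3.08 in the others) and a median-of-ratios factor of 0.896, against 0.992 to 1.07. Submergence replicate 1 had the next lowest weight, and the medians printed for gene lists that changed sign or moved by over 1.5 times without either sample are given without it as well. The median SD per gene on the log2 scale was 0.17 for submergence (n = 3) and 0.19 for flooding (n = 3). Samples did not group cleanly by treatment. Pearson r across tested genes was 0.9545 to 0.9726 within submergence and 0.9602 to 0.9767 within flooding. Between the treatments it was 0.9391 to 0.9748, highest for submergence replicate 2 with flooding replicate 2. All 24 nuclear photosynthesis genes examined were tested and none had an unadjusted p under 0.05. Of 8 root markers, 7 stayed below 0.5 FPKM, and the other, PYK10, ranged from 30.03 to 141.05 FPKM with overlapping groups. The number of reads behind a value is not known from FPKM, so spread between samples is the only error given. Whether fewer cells of a type or less RNA per cell lowers a value cannot be told apart in whole shoots.

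No transcript passed the test across all genes. By limma on log2(FPKM + 0.1), 0 of 18865 genes (0.00%) had a Benjamini-Hochberg adjusted p under 0.05, and the smallest adjusted p was 0.107, shared by 40 genes. An unadjusted p under 0.05 was found for 2780 genes (14.7%), of which 921 were higher under flooding (4.88%) and 1859 were lower (9.85%). All 3 flooding samples lay above all 3 submergence samples in 1169 genes (6.20%) and below them in 2910 (15.4%), which is 4079 genes without overlap (21.6%). Of all tested genes 7139 had a positive log2 difference and 11726 a negative one, against 9769 and 9096 after median-of-ratios rescaling. The larger numbers on the lower side depended on scaling. After median-of-ratios rescaling, 1323 genes were higher and 1246 lower at an unadjusted p under 0.05, and 1849 and 1981 did not overlap, while the median log2 difference of all genes moved from -0.07 to 0.01. The large differences leaned the other way, since 214 of the non-overlapping genes were at least 2-fold higher under flooding and 73 were at least 2-fold lower, with fold changes on the log2(FPKM + 0.1) scale.

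With all 9 samples in one fit, which takes in the smaller spread of the control samples, 231 genes had an adjusted p under 0.05 (1.22%), of which 90 were higher (0.477%) and 141 lower (0.747%). With samples weighted by their fit (array weights), the number was 632 (3.35%), of which 244 were higher (1.29%) and 388 lower (2.06%). Of the higher genes, 88 were called in both fits, which is 97.8% of the first list and 36.1% of the second. In the text below, higher and lower describe values, and the adjusted p of the test on the 6 samples is at least 0.107 for every gene. The adjusted p with all 9 samples is given as well for some genes, mostly where it was under 0.05. It came from 1 of 16 alternative fits, and over all of these the adjusted p of the genes concerned ran from 0.0158 (NAC090 with array weights) to 0.409 (EDS1 with 1 sample left out).

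**Figure D1:**
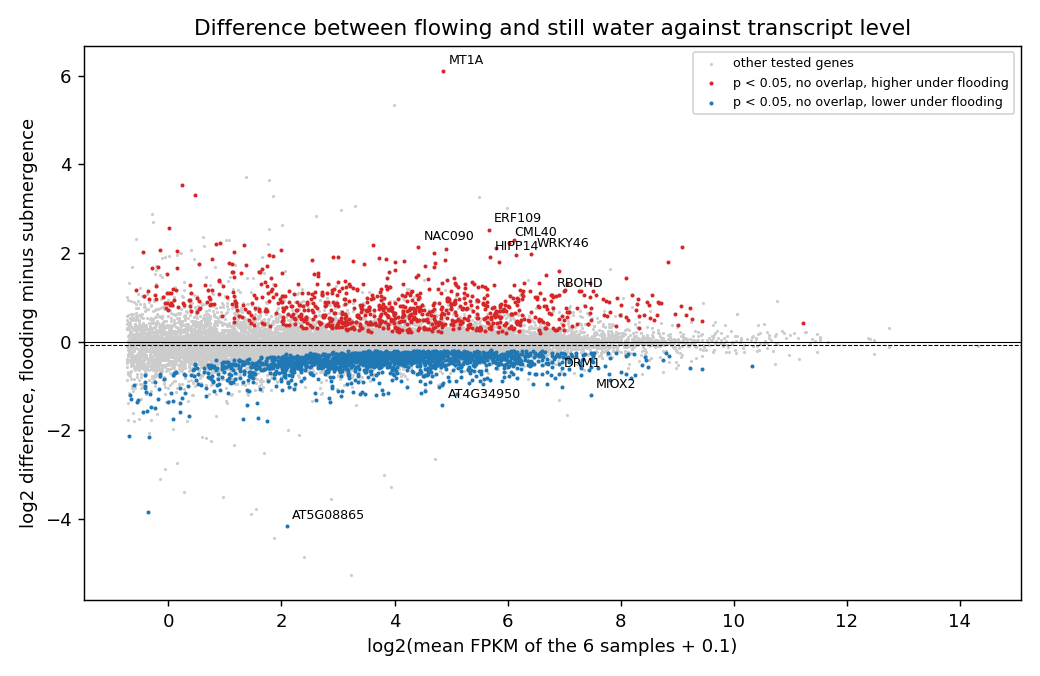
Each point is 1 of the 18865 tested genes, with the log2 of its mean FPKM over the 6 samples (plus 0.1) on the x axis and the log2 difference, flooding minus submergence, on the y axis. Coloured genes had an unadjusted p under 0.05 and no overlap between the 3 and 3 samples. The solid line is at 0 and the dashed line at the median of all genes, -0.07. MT1A lies highest at 6.10, and ERF109 stands at 2.53.

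Among the named genes with high values under flooding were several transcription factors and calcium sensors. ERF109, an ERF that responds to redox changes and drives jasmonate-induced auxin synthesis, was listed at 7.03, 18.45 and 21.57 FPKM in submergence replicates 1 to 3 and at 76.3, 58.73 and 122.12 FPKM in the flooding samples. Every flooding sample lay well above every submergence sample, and the control mean was 1.63 FPKM. Its log2 difference was 2.53 with a standard error (SE) of 0.45 (unadjusted p = 0.000896, adjusted p = 0.132). CML40, a calmodulin-like protein, was at 9.13, 33.4 and 33.9 FPKM under submergence and at 103.03, 83.3 and 125.27 FPKM under flooding, a log2 difference of 2.23 ± 0.50 (SE). In both genes submergence replicate 1 was far below the other submergence samples, and without it the log2 differences were 2.030 and 1.603. Neither ERF109 nor CML40 had an adjusted p under 0.05 with all 9 samples.

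NAC090, a transcription factor of the NAC family, had the smallest p of all genes. It was at 5.95, 8.91 and 8.87 FPKM under submergence and at 33.34, 32.69 and 38.18 FPKM under flooding. The flooding samples were close to each other here, while submergence replicate 1 was below the other submergence samples. The log2 difference was 2.14 (95% confidence interval 1.73 to 2.55, unadjusted p = 6.09e-06, adjusted p = 0.107, and 0.0333 with all 9 samples). SARD1, which activates the salicylic acid synthesis gene ICS1, was at 15.17, 18.63 and 14.75 FPKM under submergence and at 47.47, 38.83 and 36.84 FPKM under flooding (log2 difference 1.34 ± 0.14, SE). Its adjusted p with all 9 samples was 0.0327.

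The promoters of ERF109, CML40, NAC090 and SARD1 are shown. These genes were chosen in part because their upstream sequence holds letters that WRKY, MYC and CAMTA factors are known to bind. GRXC9 and CML37, also named on the higher side, held no match to any motif searched. The sequences run from 250 bases before to 50 bases after the annotated gene start, read from the TAIR10.1 genome of RefSeq at the start given by the deposited TAIR10 table. Lower case is the plain sequence and capitals mark any match on either strand to TTGAC (W-box core), CACGTG (G-box), CGCGT (CAMTA core) or ACGTGGC (ABA response element), while GCCGCC (GCC-box) and CCGAC (DRE core) were searched and not found in these 4.
ERF109: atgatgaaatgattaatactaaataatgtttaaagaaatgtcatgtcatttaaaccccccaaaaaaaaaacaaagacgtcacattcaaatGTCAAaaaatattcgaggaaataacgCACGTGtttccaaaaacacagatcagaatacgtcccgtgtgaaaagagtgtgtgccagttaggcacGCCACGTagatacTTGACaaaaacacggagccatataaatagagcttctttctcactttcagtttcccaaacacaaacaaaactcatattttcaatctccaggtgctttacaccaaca
NAC090: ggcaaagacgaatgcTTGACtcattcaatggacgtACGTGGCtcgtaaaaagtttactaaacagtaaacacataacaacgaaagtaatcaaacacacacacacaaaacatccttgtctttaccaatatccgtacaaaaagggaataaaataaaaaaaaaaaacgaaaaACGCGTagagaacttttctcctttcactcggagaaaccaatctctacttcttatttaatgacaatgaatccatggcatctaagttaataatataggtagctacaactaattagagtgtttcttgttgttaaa
SARD1: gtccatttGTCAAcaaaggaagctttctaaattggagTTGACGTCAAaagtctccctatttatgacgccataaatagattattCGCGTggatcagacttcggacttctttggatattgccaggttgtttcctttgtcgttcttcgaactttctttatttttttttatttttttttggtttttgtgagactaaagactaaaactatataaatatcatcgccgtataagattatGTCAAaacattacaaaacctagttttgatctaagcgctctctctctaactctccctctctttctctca
CML40: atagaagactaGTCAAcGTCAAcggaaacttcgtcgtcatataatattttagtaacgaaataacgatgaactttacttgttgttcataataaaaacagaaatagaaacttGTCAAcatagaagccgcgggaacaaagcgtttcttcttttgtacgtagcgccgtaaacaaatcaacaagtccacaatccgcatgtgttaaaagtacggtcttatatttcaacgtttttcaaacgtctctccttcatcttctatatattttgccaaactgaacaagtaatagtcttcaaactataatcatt

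In genome coordinates these windows are chr4:16451626-16451925 on the plus strand for ERF109, chr5:7410053-7410352 on the minus strand for NAC090, chr1:27749199-27749498 on the minus strand for SARD1 and chr3:295774-296073 on the plus strand for CML40. ERF109 held 1 CACGTG, 1 ACGTGGC on the reverse strand and 2 TTGAC. In NAC090 the letters ACGCGT match CGCGT on both strands, and both matches overlap. SARD1 held 4 TTGAC and 1 CGCGT, and CML40 held 3 TTGAC, all on the reverse strand. CACGTG can overlap ACGTGGC in general, though the matches in ERF109 lie apart. Among the 12 nuclear genes named for a large or well-separated higher value, 8 promoters held TTGAC, 3 held CACGTG, 4 held CGCGT and 3 held ACGTGGC. Of all 32546 nuclear promoters of this length, 49.9%, 7.11%, 8.67% and 3.73% held these letters. Of the 18739 whose genes were tested, 50.7%, 8.98%, 9.88% and 4.86% did. Among the 14 genes named on the lower side, 6, 0, 1 and 0 promoters did. These are counts of letters in chosen genes, with no test.

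**Figure D2:**
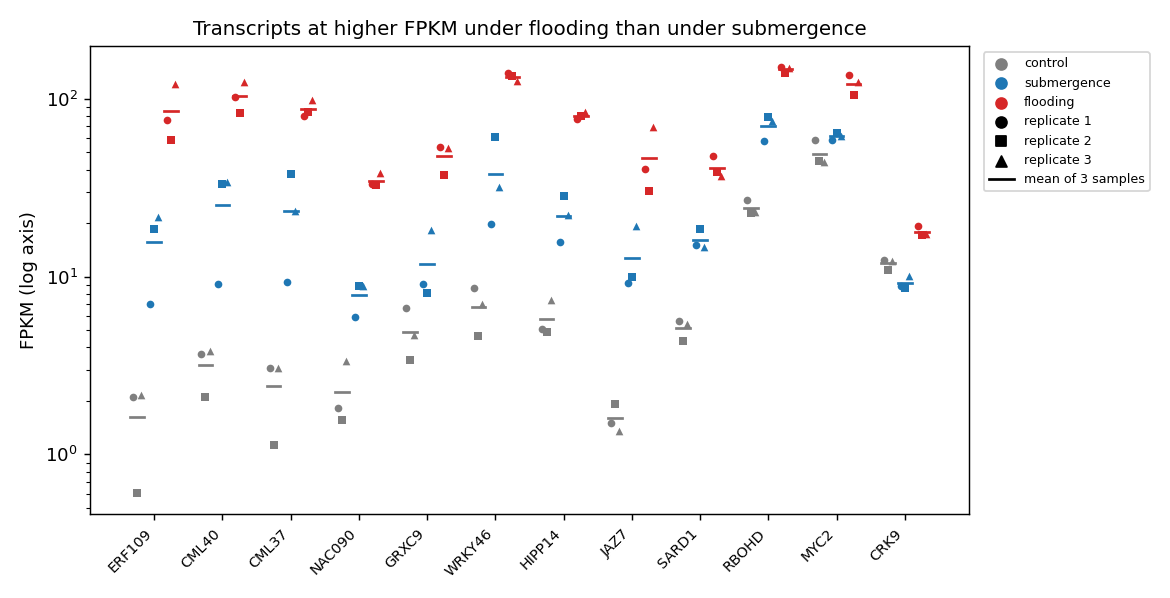
FPKM of 12 transcripts with higher values under flooding, on a log axis, in each control (grey), submergence (blue) and flooding (red) sample, with symbols for the replicate number and a bar for the mean of 3 samples. In each of the 12, the red points lie above all blue points, and CRK9 shows little scatter within groups.

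The gene lists below were chosen with earlier results of these data known, so their counts describe the values and test nothing. Calcium-binding proteins formed the sensor group. Among 15 touch genes and CMLs, 14 were tested, 13 had a positive log2 difference, 7 were higher without overlap and none was lower without overlap, where 6.20% of all tested genes were higher without overlap. The median log2 difference of the list was 0.45, against -0.07 over all genes. Not every CML followed. Of the 32 tested genes with names starting with CML, a grouping made after the values were seen, 25 were positive and 7 negative. Without overlap 14 of these were higher and 2 lower, where 6.20% and 15.4% of all tested genes were. CML37 was at 9.29, 37.97 and 23.34 FPKM under submergence and at 80.33, 84.47 and 98.26 FPKM under flooding. CML38 was at 134.15, 361.87 and 282.38 FPKM and at 459.93, 373.92 and 518.93 FPKM, and CML47 was between 8.29 and 18.87 FPKM and between 18.93 and 27.63 FPKM. The flooding samples were all higher, but by little in CML38 and CML47, where the groups almost met. The touch genes proper did not separate. XTH22, known as TCH4, was already at 910.9 to 1713.09 FPKM under submergence and was at 1374.12 to 1711.26 FPKM under flooding, with a 95% confidence interval of the log2 difference from -0.38 to 0.80, and its control samples were at 37.37 to 86.85 FPKM. CML12, known as TCH3, overlapped as well, at 892.03 to 1470.91 and 1288.73 to 1697.56 FPKM. In 13 of the 14 genes submergence replicate 1 was the lowest submergence sample, and without it the median of the list was 0.26.

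The channels and wall sensors that could detect a mechanical load came next. Of 7 tested, none had an unadjusted p under 0.05 and 2 were lower without overlap (15.4% of all tested genes were). The median log2 difference was -0.08, and -0.13 without submergence replicate 1. FER, the receptor kinase FERONIA that senses the state of the cell wall, was at 87.13, 126.93 and 114.22 FPKM under submergence and at 105.68, 104.51 and 114.84 FPKM under flooding. Its log2 difference was 0.00, with a 95% confidence interval from -0.35 to 0.36.

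Among the RBOH oxidases, RBOHD, the main source of the oxidative burst in leaves, was at 58.15, 79.21 and 74.99 FPKM under submergence and at 150.92, 140.19 and 150.09 FPKM under flooding. The control mean was 24.2 ± 2.28 FPKM (SD, n = 3), so both water treatments were above the controls and the groups did not overlap. The log2 difference was 1.07 (95% confidence interval 0.75 to 1.38, unadjusted p = 9.50e-05, adjusted p = 0.107, and 0.0327 with all 9 samples). RBOHF, which acts with RBOHD in stress responses, overlapped at 8.54 to 22.89 and 14.7 to 18.7 FPKM. RBOHC, known for root hair growth, was between 0.16 and 1.29 FPKM and between 0.6 and 2.75 FPKM. The other 7 members were below 0.5 FPKM, and RBOHG was listed at 0 in 5 of the 6 samples. The median of the 3 tested genes was 1.02, and 0.35 without submergence replicate 1.

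Transcription factors of the ERF, WRKY and zinc finger families formed the next group. Among 23 stress ERF genes, 21 were tested, 19 were positive, 11 had an unadjusted p under 0.05 and higher values, and none had lower ones (median log2 difference 0.65). Over all tested genes, 4.88% were higher and 9.85% lower at an unadjusted p under 0.05. ERF13 was at 7.93, 14.88 and 12.98 FPKM under submergence and at 49.94, 32.56 and 38.18 FPKM under flooding (1.77 ± 0.26, SE, with an adjusted p of 0.0437 with all 9 samples). ERF11, a repressor of ethylene responses, was at 11.7, 37.54 and 25.79 FPKM and at 60.12, 51.47 and 59.67 FPKM. ERF1B, which joins ethylene and jasmonate signals, stayed low but separated, at 0.8 to 1.1 and 1.8 to 3.27 FPKM. Not every member followed, since RAP2.6 was at 6.99, 4.42 and 28.28 FPKM and at 4.72, 5.78 and 6.06 FPKM. In 20 of the 21 genes the lowest submergence sample was replicate 1, and the median of the list without it was 0.35.

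All 15 WRKY genes examined were tested. Of these 14 were positive, 9 were higher without overlap and WRKY29 was lower without overlap, with a median log2 difference of 0.80. Over all tested genes, 6.20% were higher and 15.4% lower without overlap. WRKY46, a factor in basal defence and stomatal closure, was at 19.76, 61.44 and 31.81 FPKM under submergence and at 139.27, 133.98 and 125.76 FPKM under flooding. The groups were far apart although submergence replicate 2 was well above the other submergence samples, and the log2 difference was 1.97 ± 0.37 (SE). WRKY54, a partner of WRKY70 in salicylic acid responses, was at 16.49, 8.49 and 12.23 FPKM and at 30.29, 27.97 and 22.33 FPKM, and WRKY30 was at 1.87 to 2.33 and 3.8 to 5.3 FPKM. In both the submergence samples overlapped the control samples, which were at 9.3 to 11.3 and 1.95 to 3.38 FPKM. WRKY40, a negative regulator of defence, was at 112.12, 224.52 and 253.49 FPKM and at 448.79, 290.84 and 445.81 FPKM, against a control mean of 13.6 FPKM.

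Zinc fingers of the ZAT and AZF type, which repress transcription during abiotic stress, had 9 positive members of 10 (median 0.80). Without submergence replicate 1 the number was 7 and the median 0.44. AZF1 was at 3.42, 4.05 and 2.89 FPKM under submergence and at 8.54, 9.94 and 7.56 FPKM under flooding (1.31 ± 0.17, SE, adjusted p = 0.0333 with all 9 samples). ZAT7 was at 38.26, 126.16 and 81.15 FPKM and at 166.48, 164.11 and 217.22 FPKM. ZAT5 stood against the group, at 14.73, 15.1 and 13.13 FPKM under submergence and 4.77, 8.54 and 5.99 FPKM under flooding. Its log2 difference was -1.18 ± 0.21 (SE, adjusted p = 0.132, and 0.0337 with all 9 samples), and the control mean of 9.99 FPKM lay between both groups.

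**Figure D3:**
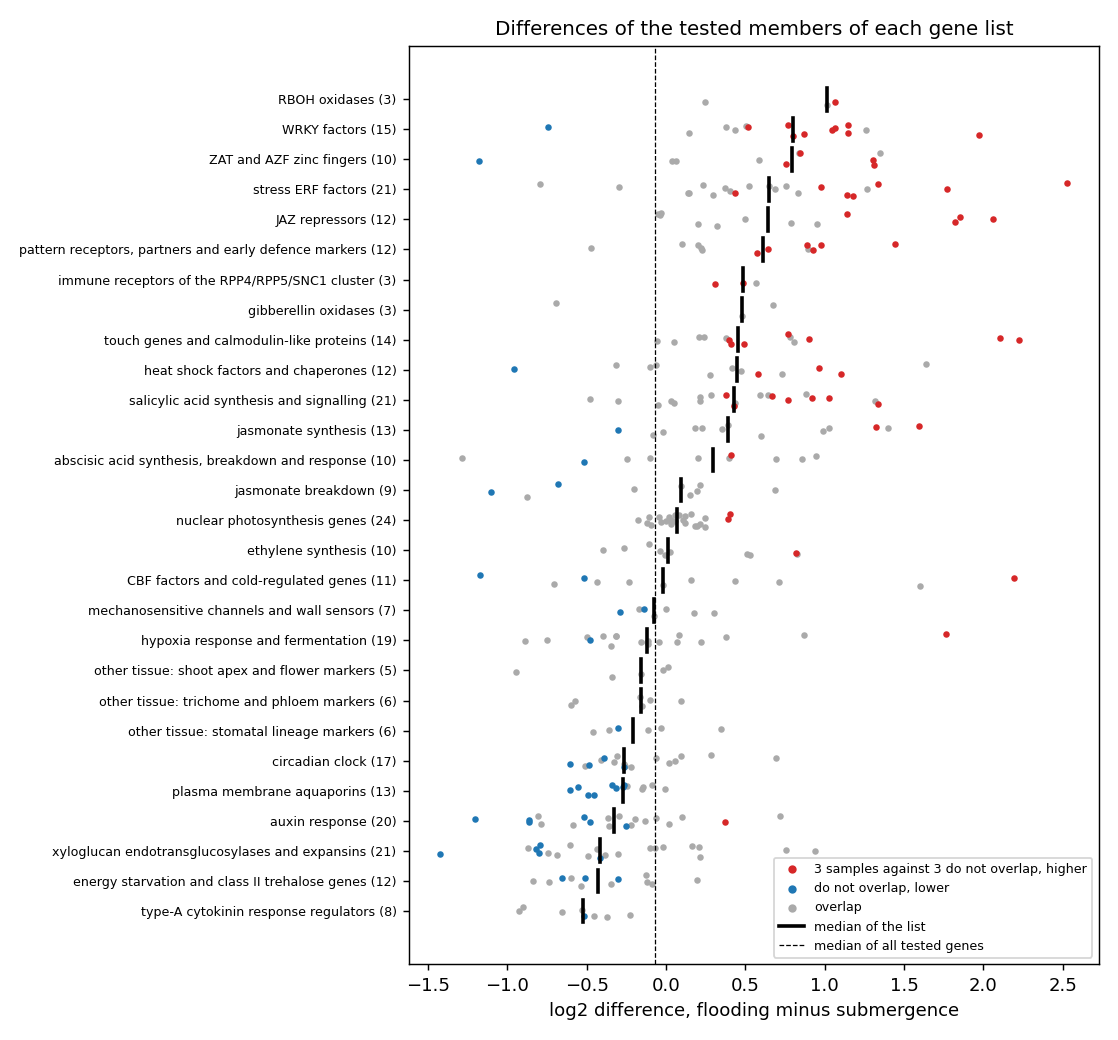
Log2 difference, flooding minus submergence, of each tested member of the gene lists (x axis), with the number of tested members beside the list name. Red and blue points are genes whose 3 flooding samples lie all above or all below the 3 submergence samples, grey points overlap, black bars are list medians and the dashed line is the median of all tested genes. List medians run from 1.02 for the 3 tested RBOH genes to -0.52 for the type-A response regulators. The order depends on submergence replicate 1, without which the RBOH median is 0.35 and that of the ZAT and AZF factors 0.44, both below the 0.48 of the JAZ repressors.

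In the jasmonate pathway MYC2, some repressors and a few synthesis genes were higher without overlap. Of 13 tested synthesis genes, 10 were positive, 2 were higher without overlap and 1 was lower (median 0.39), where 6.20% and 15.4% of all tested genes were. LOX4, a lipoxygenase at the start of the pathway, was at 30.61, 70.1 and 88.41 FPKM under submergence and at 176.3, 139.54 and 213.6 FPKM under flooding. OPCL1, which activates the precursor for beta-oxidation, was at 74.7, 99.02 and 130.1 FPKM and at 261.08, 191.27 and 302.77 FPKM, with an adjusted p of 0.0437 with all 9 samples. LOX3, AOC3 and OPR3 overlapped, with log2 differences of 1.398 ± 0.53, 1.03 ± 0.40 and 0.99 ± 0.47 (SE). In LOX3 submergence replicate 3 reached 89.07 FPKM, above the 66.61 FPKM of flooding replicate 2. AIM1, which also serves beta-oxidation, showed no separation at 52.84 to 70.39 and 58.56 to 68.17 FPKM.

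Among 13 JAZ repressors 12 were tested and 4 were higher without overlap, where 6.20% of all tested genes were. JAZ7 was at 9.26, 9.96 and 19.23 FPKM under submergence and at 40.55, 30.38 and 69.26 FPKM under flooding, JAZ8 at 5.52, 4.84 and 13.67 FPKM and at 27.27, 14.6 and 41.71 FPKM, and JAZ5 at 35.43, 45.14 and 67.16 FPKM and at 113.82, 87.22 and 116.21 FPKM. JAZ7 and JAZ8 lack the degradation signal of other JAZ proteins, as does JAZ13. JAZ13 was at 0.47, 0.17 and 0.4 FPKM under submergence, near the control mean of 0.413 FPKM, and at 1.85, 1.84 and 1.37 FPKM under flooding (2.06 ± 0.37, SE, unadjusted p = 0.000932, adjusted p = 0.132, and 0.103 with all 9 samples). JAZ3, JAZ11 and JAZ12 had log2 differences from -0.05 to -0.03, which turned positive after median-of-ratios rescaling. MYC2, the target of these repressors, was at 59.14, 64.4 and 61.56 FPKM under submergence and at 135.65, 105.05 and 123.86 FPKM under flooding, with an adjusted p of 0.0333 with all 9 samples.

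Genes for the breakdown of jasmonate were listed separately. Of 9 tested genes none was higher and 2 were lower without overlap, which is not far from the 15.4% of all tested genes that were lower. The median of 0.09 rested on single samples, since it was -0.31 without submergence replicate 1, -0.49 without flooding replicate 3 and 0.48 without submergence replicate 3. CYP94C1, which oxidises the active hormone, was far above its controls in both treatments but overlapped, at 80.08, 69.72 and 190.36 FPKM and at 107.67, 71.75 and 188.09 FPKM. ST2A, a sulfotransferase of 12-hydroxyjasmonate, was lower under flooding at 6.75, 7.03 and 2.72 FPKM, against 10.77, 8.8 and 13.92 FPKM under submergence. Jasmonate genes varied within both groups, and the highest submergence sample was replicate 3 in 10 of the 12 JAZ genes and in 11 of the 13 synthesis genes. The highest flooding sample was replicate 3 in 8 of the 12 JAZ genes and in 7 of the 13 synthesis genes. Without submergence replicate 3 the medians were 0.90 for the JAZ genes and 0.95 for the synthesis genes.

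Of the salicylic acid list all 21 genes were tested, 18 were positive and 7 were higher without overlap (median 0.43), where 6.20% of all tested genes were. CBP60G, the partner of SARD1, was at 35.85, 65.99 and 53.09 FPKM under submergence and at 112.04, 93.38 and 101.52 FPKM under flooding. PAD4 and EDS1, lipase-like proteins that carry signals from immune receptors, were at 22.78 to 32.57 and 46.68 to 56.09 FPKM and at 32.34 to 43.72 and 57.27 to 73.99 FPKM, both with an adjusted p under 0.05 with all 9 samples. ICS1 itself, which makes isochorismate, was at 10.65, 10.7 and 11.74 FPKM and at 15.31, 14.04 and 13.83 FPKM, a small difference of 0.38 ± 0.10 (SE) with no overlap. EDS5, which exports isochorismate, and PBS3, which conjugates it, overlapped with log2 differences of 0.64 ± 0.26 and 0.88 ± 0.30 (SE). PAL1 and PAL2 of the phenylalanine route overlapped too (0.43 ± 0.20 and 0.28 ± 0.16, SE). The late marker PR1 varied from 17.39 to 92.81 FPKM under submergence and from 7.92 to 60.07 FPKM under flooding, so no difference could be seen against that spread.

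The list of pattern receptors, their partners and early defence markers had 11 positive members of 12 tested and 6 higher without overlap (median 0.61). Over all tested genes, 6.20% were higher without overlap. PEPR1 and PEPR2 bind the Pep peptides released by damaged cells. PEPR2 was at 1.77, 1.43 and 2.1 FPKM under submergence and at 7.07, 4.21 and 4.01 FPKM under flooding, and PEPR1 was at 17.71, 16.48 and 27.11 FPKM and at 43.95, 31.15 and 44.65 FPKM. SOBIR1, a partner of receptor-like proteins, was at 117.13, 187.45 and 168.43 FPKM and at 305.51, 267.07 and 288.93 FPKM. LYK5, the chitin receptor, was at 9.93, 15.11 and 13.55 FPKM and at 26.18, 22.02 and 24.58 FPKM. The flagellin receptor FLS2 went the other way without separating, at 11.87 to 18.83 and 8.67 to 12.53 FPKM. Of the 3 resistance genes at the RPP4/RPP5/SNC1 cluster, RPP5 and SNC1 did not overlap but differed by only 0.49 ± 0.18 and 0.31 ± 0.11 (SE). These 3 genes are close in sequence, so reads may have been shared among them.

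Further genes were named by their size or p alone. HIPP14, a heavy-metal-associated protein, was at 15.68, 28.42 and 22.13 FPKM under submergence and at 76.64, 80.41 and 84.63 FPKM under flooding. GRXC9, a glutaredoxin of the salicylic acid response, was at 9.07, 8.1 and 18.38 FPKM and at 53.58, 37.29 and 53.24 FPKM. CRK9, named as a cysteine-rich receptor-like kinase, was at 8.86, 8.65 and 10.1 FPKM and at 19.2, 17.12 and 17.29 FPKM, while its control mean was 11.9 FPKM. In all 3 the adjusted p with all 9 samples was between 0.0327 and 0.0349. DDF1, a CBF-type factor that lowers gibberellin, was at 3.58, 2.75 and 5.74 FPKM and at 9.92, 17.22 and 33.48 FPKM, and the highest sample was flooding replicate 3. Without it the log2 difference was 1.74, against 2.19. MAPKKK21, a kinase at the head of a MAP kinase cascade, was at 0.47, 1.26 and 3.1 FPKM and at 10.02, 3.54 and 4.98 FPKM. The metallothionein MT1A was listed at 0 in submergence replicates 1 and 2 and at 27.77 FPKM in replicate 3, against 77.21, 30.1 and 38.78 FPKM under flooding. It has a near-identical copy, and its log2 difference of 6.10 ± 2.09 (SE) depends on the pseudocount.

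Named genes on the lower side had mixed functions. AT4G34950, a transporter of the major facilitator superfamily, was at 47.6, 38.1 and 39.82 FPKM under submergence and at 15.5, 18.18 and 12.76 FPKM under flooding, a log2 difference of -1.44 (95% confidence interval -1.80 to -1.07, unadjusted p = 3.82e-05, adjusted p = 0.107, and 0.0404 with all 9 samples). MIOX2, which oxidises myo-inositol for cell wall sugars, was at 163.79, 214.95 and 367.01 FPKM and at 106.95, 69.55 and 140.21 FPKM. Its control mean was 41.6 FPKM, so flooding lay between the controls and submergence. SMT3, a sterol methyltransferase, was at 40.48, 48.12 and 43.55 FPKM under submergence and at 23.98, 23.16 and 24.05 FPKM under flooding, where the control mean was 23.7 FPKM. EXL3, an EXORDIUM-like protein, was at 149.14, 187.64 and 161.75 FPKM and at 74.17, 92.94 and 77.8 FPKM, with a control mean of 93.8 FPKM above all flooding samples. DRM1, a dormancy-associated protein, instead was highest in the controls with a mean of 412 FPKM, and was at 138.74, 160.41 and 148.98 FPKM under submergence and 88.07, 86.97 and 93.33 FPKM under flooding. AT2G42170, annotated as an actin family protein, was at 7.37 to 8.66 and 3.43 to 3.77 FPKM. GATA22, a cytokinin-responsive factor of chloroplast development, was at 25.82, 11.24 and 16.87 FPKM and at 6.26, 9.11 and 6.94 FPKM.

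**Figure D4:**
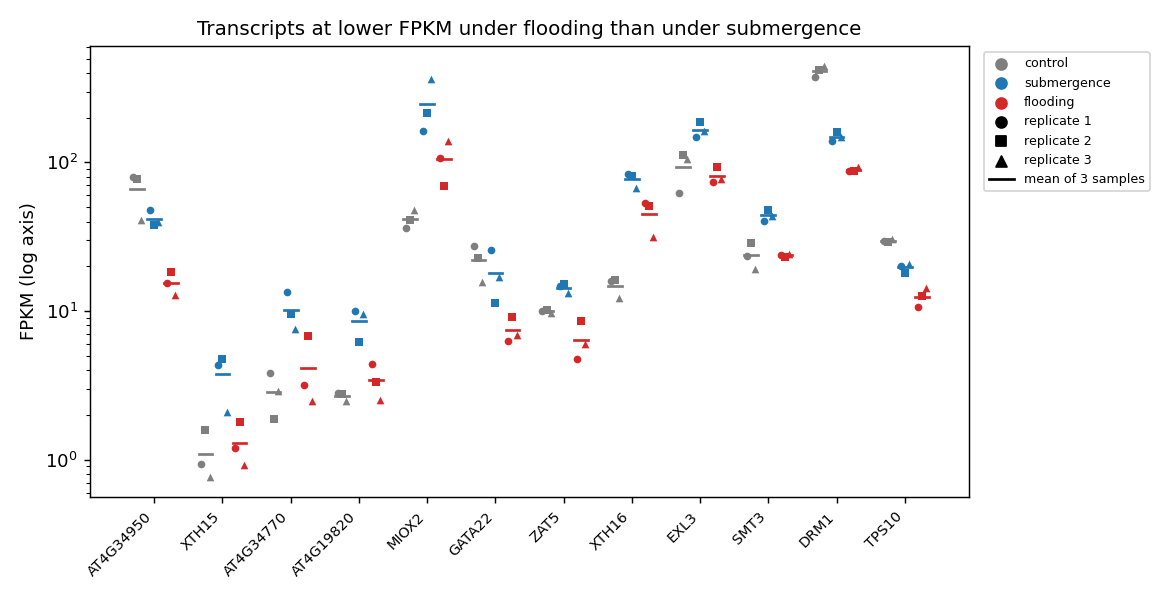
FPKM of 12 transcripts with lower values under flooding than under submergence, on a log axis, drawn as for the higher transcripts. Red points lie below all blue points in each gene. In MIOX2 and XTH16 all grey control points lie below the red ones, whereas in DRM1 and TPS10 they lie above the blue ones.

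Further genes named on the lower side were AT4G34770, annotated as SAUR-like (-1.37 ± 0.39, SE), AT4G19820, annotated as a chitinase-like glycosyl hydrolase (-1.31 ± 0.26), AT1G60060, annotated as a WNK-like kinase (-1.27 ± 0.38), AT5G22310 (-1.22 ± 0.35) and AT2G16660, another transporter of the major facilitator superfamily (-1.19 ± 0.33). AT5G08865, annotated as a small nucleolar RNA, was at 6.71, 6.08 and 7.1 FPKM under submergence, at 5.18 FPKM in flooding replicate 2 and listed at 0 in flooding replicates 1 and 3 and in all controls.

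Wall-loosening enzymes leaned lower by their median. Among 22 xyloglucan endotransglucosylases (XTHs) and expansins, 21 were tested and 16 were negative, where 11726 of all 18865 tested genes were. After median-of-ratios rescaling 14 of the 21 were negative, against 9096 of all genes. Of the list, 5 were lower without overlap and none was higher, where 15.4% of all tested genes were lower without overlap (median -0.41, and -0.34 after median-of-ratios rescaling). XTH16 was at 83.27, 81.18 and 66.98 FPKM under submergence and at 53.52, 50.74 and 31.53 FPKM under flooding, XTH33 at 18.98, 26.63 and 16.68 FPKM and at 10.74, 13.22 and 10.76 FPKM, and XTH15 at 4.35, 4.79 and 2.09 FPKM and at 1.19, 1.79 and 0.92 FPKM. In all 3 the controls were below the submergence samples, and at most at 16.19 FPKM in XTH16, 1.85 FPKM in XTH33 and 1.59 FPKM in XTH15. EXPA1, an expansin, was at 53.92, 32.13 and 32.09 FPKM and at 18.08, 25.32 and 23.06 FPKM, with the controls highest at 87.3 FPKM. XTH18 and XTH19, in contrast, had positive log2 differences of 0.75 ± 0.47 and 0.94 ± 0.45 (SE) with overlap. Without flooding replicate 3 the median of the list was -0.18, and that of all genes -0.01.

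Auxin response genes had 16 negative members of 20 tested, where 11726 of all 18865 tested genes were negative. Of the 20, 6 were lower and 1 higher without overlap, where 15.4% and 6.20% of all tested genes were (median -0.33). SAUR14, of a family that promotes cell expansion, was at 17.84, 7.87 and 13.01 FPKM under submergence and at 6.69, 7.17 and 6.2 FPKM under flooding. IAA3, IAA4 and IAA7, which repress auxin responses, differed by -0.52 ± 0.14, -0.48 ± 0.14 and -0.25 ± 0.10 (SE). IAA17 was higher, at 13.18 to 17.37 and 17.42 to 25.72 FPKM, with the groups almost touching. Without flooding replicate 3 the median of this list was -0.09, and that of all genes -0.01.

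All 13 plasma membrane aquaporins, the water channels of the PIP family, had negative log2 differences, as did 11726 of all 18865 tested genes. Of the aquaporins, 8 were lower without overlap, where 15.4% of all tested genes were (median -0.27). Without flooding replicate 3, and likewise without submergence replicate 1, 9 were negative and 4 positive, with medians of -0.24 and -0.29. After median-of-ratios rescaling 12 were negative and the median was -0.19. PIP1;3 was at 240.26, 257.07 and 201.4 FPKM under submergence and at 139.28, 182.81 and 139.53 FPKM under flooding (-0.60 ± 0.15, SE). PIP1;5 was at 62.76, 59.8 and 55.33 FPKM and at 40.44, 44.61 and 41.4 FPKM, with an adjusted p of 0.0437 with all 9 samples. PIP2;7 and PIP2;2 differed by -0.55 ± 0.15 and -0.46 ± 0.11 (SE).

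Genes of low energy status included 12 members, of which 11 were negative (median -0.43), where 11726 of all 18865 tested genes were. Of the 12, 6 had an unadjusted p under 0.05 and lower values, where 9.85% of all tested genes had. Without overlap 3 were lower, where 15.4% of all tested genes were. TPS6, a class II trehalose phosphate synthase-like protein, was at 20.55, 20.08 and 20.03 FPKM under submergence and at 14.27, 14.62 and 13.62 FPKM under flooding. TPS10, of the same class, was at 20.04, 18.15 and 20.79 FPKM and at 10.62, 12.62 and 14.34 FPKM. Both had an adjusted p under 0.05 with all 9 samples, of 0.0337 and 0.0407. The sugar-starvation markers DIN10, at 289.04 to 496.19 and 200.57 to 306.74 FPKM, and BCAT2, at 62.99 to 161.47 and 48.82 to 68.9 FPKM, overlapped.

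All 8 tested type-A response regulators, early targets that dampen cytokinin signals, had negative log2 differences (median -0.52), where 11726 of all 18865 tested genes had. Only ARR16 was lower without overlap, a share near the 15.4% of all tested genes. It was at 18.16, 12.25 and 14.16 FPKM under submergence and at 11.61, 8.21 and 11.26 FPKM under flooding. ARR7 was at 37.15, 11.29 and 23.53 FPKM and at 18.15, 13.58 and 13.31 FPKM, so the submergence samples spread more widely than the groups differed (95% confidence interval of the log2 difference -1.48 to 0.43). The median of the list without submergence replicate 1 was -0.26. Among 17 clock genes 4 were lower without overlap, namely RVE4, RVE6, ELF3 and LNK2, which is not far from the 15.4% of all tested genes. The core genes CCA1 and LHY overlapped.

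Most genes of the hypoxia list overlapped between flowing and still water, and ADH1, PDC1 and PCO1 varied more within groups than between them. The wider annotated term response to hypoxia, given below, had 8 higher and 2 lower genes without overlap among 43 tested. Of the 19 tested genes of the list, 1 was higher and 1 lower without overlap (median -0.12), where 6.20% and 15.4% of all tested genes were. ADH1, alcohol dehydrogenase of the fermentation pathway, was at 8.14, 5.06 and 2.57 FPKM in submergence replicates 1 to 3 and at 8.2, 7.16 and 1.38 FPKM in flooding replicates 1 to 3. PDC1, pyruvate decarboxylase, was at 3.15, 0.77 and 0.09 FPKM and at 3.74, 0.75 and 0.05 FPKM, where the control samples were at 0.08 to 0.25 FPKM. PCO1, an oxygen-sensing cysteine oxidase, was at 7.13, 3.2 and 1.17 FPKM and at 3.4, 3.42 and 0.29 FPKM. Replicate 3 was the lowest sample of both groups in all 3 genes, and it was the lowest flooding sample in 16 of the 19 genes and the lowest submergence sample in 11. The 95% confidence intervals of the log2 differences of ADH1 and PDC1 ran from -1.81 to 1.58 and from -3.35 to 3.26, so differences of several fold in either direction remain within the error. Without flooding replicate 3 the median of the list was 0.48, and without submergence replicate 1 it was 0.06.

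The shoot apex markers STM and KNAT1 were also lowest in replicate 3 of both treatments, while among the flooding samples they were highest in replicate 2. STM was at 4.95, 2.31 and 0.05 FPKM under submergence and at 2.11, 3.28 and 0.02 FPKM under flooding, and KNAT1 at 4.5, 2.07 and 0.01 FPKM and at 2.21, 2.76 and 0.06 FPKM. Control replicate 2, with STM listed at 0 and KNAT1 at 0.03 FPKM, also lacked these markers, and its PDC1 was the lowest of the controls. Of the 14 apex and flower markers 9 were below 0.5 FPKM, and CLV3 was listed at 0 in every sample. The part that apex tissue has in the hypoxia values was not tested.

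**Figure D5:**
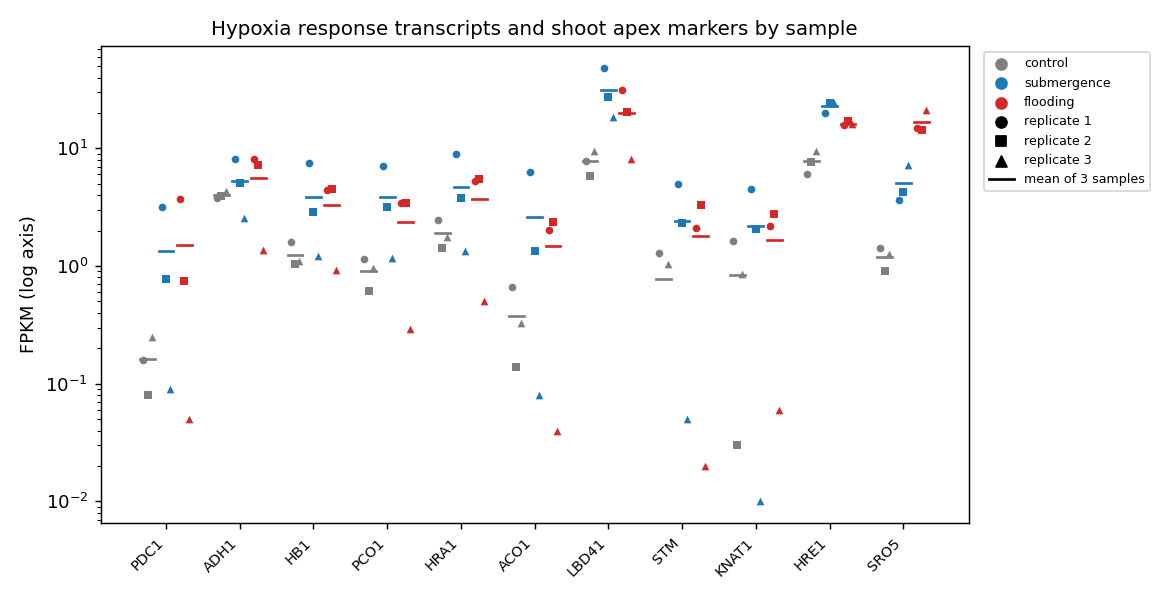
FPKM on a log axis of 9 hypoxia response transcripts and of the apex markers STM and KNAT1 in each sample, with symbols for the replicate number and bars for the mean of 3 samples. Control replicate 2 of STM is at 0 and is not drawn. Triangles (replicate 3) lie at the bottom of the blue and red points from PDC1 to KNAT1, while HRE1 and SRO5 at the right separate by group.

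The exceptions on the hypoxia list were HRE1 and SRO5. HRE1, a group VII ERF whose transcript is induced by low oxygen, was at 19.83, 24.39 and 24.11 FPKM under submergence and at 15.78, 16.93 and 16.08 FPKM under flooding (-0.48 ± 0.11, SE, adjusted p = 0.175). SRO5, which also responds to salt and oxidative stress, was at 3.67, 4.25 and 7.17 FPKM and at 14.85, 14.46 and 21.26 FPKM, with an adjusted p of 0.116, and 0.0337 with all 9 samples. The group VII factors that are present at all times, RAP2.2, RAP2.3 and RAP2.12, overlapped. Their log2 differences were -0.31 ± 0.16, -0.11 ± 0.18 and -0.11 ± 0.09 (SE). Ethylene synthesis showed a median of 0.01 over 10 tested genes (0.26 without flooding replicate 3 and 0.08 without submergence replicate 1), of which ACS7 was higher without overlap at 1.1 to 1.95 and 2.24 to 3.46 FPKM.

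Cold, heat and abscisic acid lists had members on both sides. Besides DDF1, the cold list of 11 tested genes held GOLS3, which makes galactinol, at 0.65 to 1.42 and 0.32 to 0.45 FPKM, and KIN1, at 5.91 to 9.19 and 4.74 to 5.64 FPKM. Both were lower under flooding. CBF4 and ERF095 were below 0.5 FPKM on average and were not tested. HSFA7A, a heat shock factor, was at 27.11, 31.17 and 32.88 FPKM under submergence and at 17.5, 19.11 and 11.19 FPKM under flooding, whereas HSFB1, HSP70-4 and HSP17.4 were higher without overlap. RAB18, a dehydrin induced by abscisic acid, differed by -0.52 ± 0.19 (SE), and ABI1, a phosphatase that dampens the hormone's signal, by 0.41 ± 0.17 (SE). BPH1 and ATL1, a BTB/POZ protein and a RING ubiquitin ligase, were both lower under flooding. BPH1 was at 5.88, 5.09 and 4.31 FPKM under submergence and at 2.42, 4.02 and 2.85 FPKM under flooding, and ATL1 was at 3.48, 1.56 and 2.82 FPKM and at 1.4, 1.39 and 1.35 FPKM. DREB2A overlapped, and its log2 difference of 0.14 ± 0.54 (SE) was -0.53 without submergence replicate 1.

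In the deposited annotation, 260 genes of the term response to chitin were tested. Of these 223 were positive, 111 had an unadjusted p under 0.05 and higher values and 4 lower ones, where 4.88% and 9.85% of all tested genes had, and the median was 0.50 (0.31 without submergence replicate 1). Response to wounding had 61 such higher and 8 lower genes of 243 (median 0.20), and defense response had 28 and 14 of 146 (median 0.12). For response to auxin the counts were 33 and 35 of 268 (median -0.07), and for plant-type cell wall 6 and 19 of 108 (median -0.09). Response to hypoxia (7 and 0 of 43, median 0.07), response to cold (48 and 26 of 330, median 0.02), response to water deprivation (46 and 22 of 278, median 0.08) and protein phosphorylation (22 and 17 of 145, median -0.07) completed the terms on responses and signalling. Without flooding replicate 3, when the median of all genes was -0.01, the medians of the terms other than chitin and wounding lay between 0.01 and 0.26. The ribosome terms had medians of 0.01 and 0.03, and both were at 0.12 without submergence replicate 1 and at 0.10 and 0.11 without flooding replicate 3. Genes of a term share members with the lists above, and no test was run over terms.

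Transcripts of the organelle genomes were measured in poly(A) libraries, which retain only a part of them. In the chloroplast, 16 of 83 tested genes had an unadjusted p under 0.05 and higher values and 1 had lower ones, where 4.88% and 9.85% of all tested genes had. The median was -0.02, and it was 0.06 without submergence replicate 1 and -0.04 without flooding replicate 3. PSBA, which encodes the D1 protein of photosystem II, was at 7.66, 9.87 and 11.36 FPKM under submergence and at 41.6, 64.39 and 20.93 FPKM under flooding. RBCL, the large subunit of Rubisco, was at 20.84 to 22.52 and 28.89 to 76.58 FPKM. The 16S ribosomal RNA gene RRN16S.1 was at 157.89, 191.03 and 182.24 FPKM and at 865.81, 1521.37 and 354.46 FPKM, and its copy RRN16S.2 in the inverted repeat was at 22.73, 16.3 and 25.44 FPKM and at 115.8, 181.17 and 53.08 FPKM. Flooding replicate 3 was the lowest flooding sample in each of these 4 genes. CLPP1, a protease subunit, was at 50.46 to 57.23 FPKM under submergence and at 40.05 to 45.92 FPKM under flooding. In the mitochondrion, 35 of 42 tested genes were positive (median 0.37, and 0.17 without submergence replicate 1), where 7139 of all 18865 tested genes were. Of the 42, 6 had an unadjusted p under 0.05, among them RRN18 at 13.58 to 14.71 and 17.84 to 29.62 FPKM. The others of these were low, at most at 3.1 FPKM in the 6 samples. RPSL2, for example, was at 1.02, 0 and 0 FPKM under submergence. Nuclear photosynthesis genes had a median of 0.07, and -0.03 without flooding replicate 3. LHCB1.3, the antenna gene with the highest FPKM, was at 19827.32 to 22281.09 and 18110.86 to 20868.28 FPKM.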

How the data were processed

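Poly(A) RNA from shoots was sequenced in 9 samples. The authors trimmed reads, mapped them to TAIR10 and tested counts with DESeq2 1.20.0. The deposited FPKM, with 2 decimals, were normalised by the authors to total counts and transcript. The sources used here name more than one counting tool, so which made them was not settled, and depth per gene is unknown. FPKM were used unscaled. Genes with a mean of at least 0.5 FPKM over the 6 samples were fitted with limma 3.58.1 in R 4.3.3 (lmFit, eBayes with trend) on log2(FPKM + 0.1), two-sided, with Benjamini-Hochberg adjustment over all 18865 genes. With 3 against 3 samples an exact permutation test cannot give a p under 0.1. Just inside the minimum lay CYP86A7 and ATL72 (mean 0.5 FPKM) and just outside BLH8 (0.498 FPKM).

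Named genes were the 10 largest differences in each direction (mean of at least 5 FPKM in a group, no overlap), the 5 smallest p in each direction, up to 4 members per list and genes named in the paper. The members and the 30 gene lists were chosen with earlier results of these data known. Alternatives were a pseudocount of 1, no minimum, a minimum of 2 FPKM, median-of-ratios and quantile scaling, no trend, all 9 samples, the replicate block, array weights and leaving out each sample. Per the study's methods the 3 samples of a group were independent biological replicates. Whether same-numbered samples were handled together is not given in the sources used here. Promoters were read from TAIR10.1, after the files were seen. The test was also run on simulated data, and no result given here rests on that run. Figures were made with Python 3.11.15, pandas 2.3.3, numpy 2.4.6 and matplotlib 3.10.9.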

Additional observations from a re-analysis of the deposited data

How the results depend on the processing

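A pseudocount of 1, no minimum and a minimum of 2 FPKM left every count within 1.5 times. The median of the RBOH list, with few members, was 0.49, 0.07 and 0.65 under these 3. With median-of-ratios rescaling 1849 genes were higher without overlap. An eBayes fit without trend called 1 lower gene at an adjusted p under 0.05, all 9 samples in one fit called 90 higher and 141 lower, and array weights called 244 higher and 388 lower, with 1697 higher at an unadjusted p under 0.05. Leaving out 1 sample gave 0 to 3 higher and 0 to 2 lower genes at an adjusted p under 0.05, 579 to 1046 higher ones at an unadjusted p under 0.05, and 1506 to 2629 higher and 3497 to 4433 lower without overlap, since fewer samples overlap less often. Flooding replicate 3 set the ends of 1046, 2629 and 3497.

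Same-numbered samples of submergence and flooding had positive r across genes of the deviations (0.0666, 0.16 and 0.478). Pairs of unlike number ran from -0.506 to 0.373. Submergence replicates 2 and 3 correlated best with the flooding sample of their own number. Submergence replicate 1 correlated best with flooding replicate 2 (0.373), so numbers were not taken as pairs. Whether a shared replicate effect exists was not tested. With the replicate block 0 genes had an adjusted p under 0.05, and 1110 higher and 2125 lower an unadjusted one. The block with all 9 samples, added after seeing the data, called 18 higher and 17 lower genes.

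Over the named genes, 1669 values kept direction and side of the threshold, 96 passed it in addition and 22 changed sign in 9 genes, whose main values lay between -0.53 (ARR7) and 0.24 (RBOHF). FMA was 0.0450 with median-of-ratios rescaling, 0.0032 with quantile normalization and 0.0608 with array weights, and FER was -0.0252 with quantile normalization and -0.1494 with array weights. Array weights also gave ARR7 0.0797, SOC1 -0.0942, PYK10 0.1601, AIM1 -0.1047 and DREB2A -0.1791. Leaving out 1 sample gave ranges of -0.1856 to 0.0327 for SUC2, -0.1114 to 0.5945 for RBOHF, -0.1433 to 0.0979 for SOC1, -0.7501 to 0.3639 for PYK10, -0.1164 to 0.0805 for FMA, -0.1535 to 0.1177 for FER, -0.0663 to 0.1402 for AIM1 and -0.5261 to 0.5880 for DREB2A. Of the list medians 58 of the values moved by more than the spread and 422 did not. The cause of these changes was not tested.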

Other observations

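Gene families grouped by the first letters of their deposited names, which were picked after the values were seen, gave further counts. Of 40 tested cysteine-rich receptor-like kinases (names starting with CRK) 32 had a positive log2 difference, 13 had an unadjusted p under 0.05 and higher values and none had lower ones, with a median of 0.40 (over all tested genes the shares were 4.88% and 9.85%). The 14 tested cyclic nucleotide-gated channels (CNGC), which carry calcium, included 4 higher and 1 lower gene at an unadjusted p under 0.05 (median 0.24), and the 19 lectin receptor kinases (LECRK) included 3 and 0 (median 0.19, which was 0.11 without submergence replicate 1 and 0.35 without flooding replicate 3). Of 18 tested DOF transcription factors 17 were negative (median -0.39), where 11726 of all 18865 tested genes were. At an unadjusted p under 0.05, 1 DOF gene was higher and 2 were lower, a lower share near the 9.85% of all genes. Without flooding replicate 3, 14 were negative and the median was -0.15, and without submergence replicate 1 it was -0.25.

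MBF1C, a transcriptional coactivator of the heat response, varied by sample rather than by group. It was at 8.6, 6.87 and 280.54 FPKM in the control samples, at 7.27, 654 and 29.13 FPKM under submergence and at 313.55, 290.4 and 46.62 FPKM under flooding.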
